A study of Mus musculus with 13 samples.

Results

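The Hox genes are the 39 homeobox genes that lie in 4 clusters of the mouse genome, and all 39 had a row of their own among the 23236 rows of the gene table. The members were taken by symbol alone, as every row whose gene name is Hox followed by a cluster letter from a to d and a number, a rule that uses no expression value. The cells were C2C12, a mouse myoblast line that came from adult thigh muscle, grown as myoblasts in DMEM with 10% FBS. A library labelled siLinc-Yy1 was compared with a library labelled siNC, names that read as an siRNA against Linc-Yy1, a long noncoding RNA beside the gene Yy1, and a control siRNA. For dose and time of the siRNAs the labels give nothing. There was 1 library of poly(A)-selected RNA per condition, all from 1 cell line. The values therefore describe these libraries, without replicates and without a p-value of their own. The series holds 13 samples, 4 of RNA-seq and 9 of ChIP-seq, and the other 11 were not analysed here.

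Hox proteins are transcription factors that tell cells where they stand along the body axis and the limb. Within a cluster the genes lie in the order in which they are used from head to tail, and genes with the same number in different clusters are paralogues that descend from 1 ancestral gene and often share a role. Where a Hox gene is silent, the clusters are the textbook targets of Polycomb repressive complexes, which keep them off through methylation of histone H3 at lysine 27, while Trithorax group proteins keep the active genes on. Cells in culture often keep the Hox pattern of the place they came from.

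Levels are in FPKM, which corrects fragment counts for transcript length and library size, so levels of different genes can be set side by side. For the change of a gene, 1 FPKM was added to both values before the log2 of siLinc-Yy1 over siNC was taken, and this shrinks the changes of weakly expressed genes. A gene counted as measured when its mean over both libraries was at least 1 FPKM. The steps of the lowest FPKM values in single-exon receptor genes correspond to about 47.6 M fragments for siLinc-Yy1 and 66.1 M for siNC, on the assumption that FPKM had no other scaling. At these depths 49.8% of the low receptor rows in siLinc-Yy1 and 59.1% in siNC lay within 0.02 of a whole number of fragments. The depths, and the limits drawn from them, are therefore approximate. These depths give an upper limit to the fragments behind a gene, since its transcript is at most as long as its locus. Counting intervals from these limits are the narrowest that could apply and cover counting error only.

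The targeted transcript had a row of its own, lincYy1, at 0.227 FPKM in siLinc-Yy1 and 0.360 FPKM in siNC, a ratio of 0.629, and the authors' deposited table did not call it (q-value 0.878). Here a called row is one that the authors' Cuffdiff test marks as significant, and the q-value is its p-value adjusted over all tested rows. The lower value was thus in the library labelled as targeted, but a row at this level is a weak check of the labels. Yy1 itself, a zinc finger factor that can bring Polycomb proteins to DNA, stood at 30.9 FPKM in siLinc-Yy1 and 28.6 FPKM in siNC. All 8 myoblast markers were measured in both libraries, Des (487 FPKM in siLinc-Yy1 and 322 FPKM in siNC), Itga7 (139 and 117 FPKM), Cdh15 (99.0 and 98.4 FPKM), Chrna1 (82.4 and 70.7 FPKM), Myod1 (67.0 and 62.5 FPKM), Myf5 (21.9 and 18.8 FPKM), Myog (19.4 and 22.8 FPKM) and Pax7 (2.38 and 2.77 FPKM). Of the markers of other cell types, 0 of 5 epithelial, 1 of 5 endothelial (Flt1), 1 of 5 adipocyte (Fabp4) and 1 of 6 blood cell rows (Cd68) reached 1 FPKM. Their sums were 0.701, 1.52, 1.69 and 4.86 FPKM in siLinc-Yy1, and 0.531, 1.74, 1.75 and 4.85 FPKM in siNC. Of 6 neuron marker rows 1 reached it, Tubb3, a tubulin also found outside neurons, at 151.8 FPKM in siLinc-Yy1 and 117.1 FPKM in siNC.

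The measured Hox genes were all of the Hoxc cluster, most of the Hoxa cluster and Hoxb4. Of the 39 genes, 17 were measured, 9 of 9 in Hoxc, 7 of 11 in Hoxa, 1 of 10 in Hoxb and 0 of 9 in Hoxd. Past the same limit were 11792 of all 23236 rows, so the count for the whole family is near the share over the table. No Hox gene was listed at 0 in either library. The 22 genes below the limit ranged from 0.00750 to 1.03 FPKM in siLinc-Yy1 and from 0.00624 to 0.981 FPKM in siNC. Hoxb4 and Hoxa2 stood just inside and just outside the limit, at means of 1.02 and 0.964 FPKM. Summed over its genes, Hoxc held 123 FPKM in siLinc-Yy1 and 112 FPKM in siNC, and Hoxa 51.3 and 51.4 FPKM in the same libraries. The Hoxb sum was 2.92 FPKM in siLinc-Yy1 and 2.42 FPKM in siNC, and the Hoxd sum 0.396 and 0.440 FPKM. Hoxc thus held 69.2% of all Hox FPKM in siLinc-Yy1 and 67.3% in siNC, and Hoxa 28.9% and 31.0%.

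**Figure D1:**
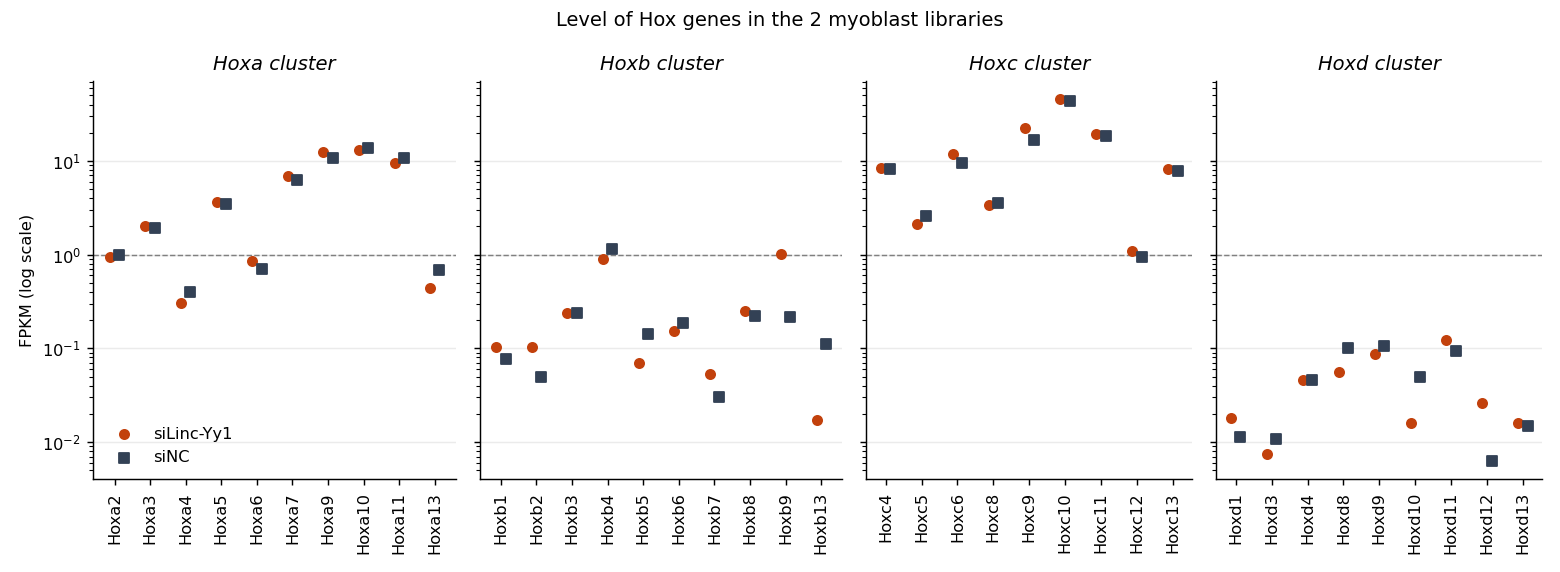
Level of 38 Hox genes in FPKM (log scale), by cluster and number, with circles for siLinc-Yy1, squares for siNC and a dashed line at 1 FPKM. All 9 Hoxc genes lie near or above the line and all 9 Hoxd genes far below it, in both libraries; Hoxb9 has the widest gap between the symbols among the genes that reach 1 FPKM.

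To show what kind of sequence lies at the start of an expressed and of a silent member, a pair of paralogues of group 9 is printed. Hoxa9 stood at 12.3 FPKM in siLinc-Yy1 and 10.8 FPKM in siNC, and Hoxd9 at 0.0870 and 0.107 FPKM. The windows run from 250 bases before to 50 after the RefSeq start on GRCm38.p6, with every CG pair in capitals.
Hoxa9, chr6:52227321-52227620, minus strand: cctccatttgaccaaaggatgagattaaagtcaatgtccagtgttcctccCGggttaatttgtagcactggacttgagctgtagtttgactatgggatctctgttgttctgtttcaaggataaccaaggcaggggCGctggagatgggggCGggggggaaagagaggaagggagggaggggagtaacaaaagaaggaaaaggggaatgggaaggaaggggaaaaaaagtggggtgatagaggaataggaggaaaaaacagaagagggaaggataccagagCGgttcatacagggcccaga
Hoxd9, chr2:74697513-74697812, plus strand: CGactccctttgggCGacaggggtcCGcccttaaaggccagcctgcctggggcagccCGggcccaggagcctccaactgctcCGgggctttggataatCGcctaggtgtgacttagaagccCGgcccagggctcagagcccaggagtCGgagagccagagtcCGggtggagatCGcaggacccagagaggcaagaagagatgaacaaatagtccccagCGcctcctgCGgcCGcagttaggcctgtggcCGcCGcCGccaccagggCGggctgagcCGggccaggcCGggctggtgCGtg
The window of the expressed Hoxa9 held 4 CG pairs at 49.7% G and C, and that of the silent Hoxd9 held 20 at 68.3%. Other members went the other way, with 4 pairs in the window of the silent Hoxd4 and 29 in that of the expressed Hoxa5. Over the 22 Hox genes with such a window, 24 windows in all, the median was 14.5 CG pairs, against 7 over 32851 windows of all genes. Windows of the measured Hox genes had a median of 14 pairs (9 windows) and those of the unmeasured ones 20 (15 windows). Of the 9 Hoxc genes, all measured, only Hoxc4 had a window, so the measured windows were mainly those of Hoxa genes. The letters GCCATNTT, the core of the sequence that YY1 binds, occurred on either strand in 1 of the 24 Hox windows, that of Hoxd10, and in 6.05% of all windows. A match or its absence describes these letters in this window and nothing more.

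Across the measured Hox genes the libraries lay close together. None of the 17 differed by at least 2-fold, where 1.57% of 11792 measured rows of the table did, and none by at least 1.5-fold, where 3.28% of the rows were higher and 0.517% lower in siLinc-Yy1, together 3.80%. Beside shares this small, neither count of 0 among 17 genes sets the Hox genes apart. The log2 fold changes ran from -0.19 to 0.41 with a median of 0.05, beside a median of -0.02 over all measured rows. Of the 17, 12 were above 0 and 5 below, while 45.4% of all measured rows were above 0. Rescaled so that both libraries had the same summed FPKM, the median of all measured rows shifted to -0.30 and that of the Hox genes to -0.22. Below 0 were then 16 of the 17 Hox genes and 10773 of the 11792 measured rows, so this count does not set the Hox genes apart. Relative to the median of all measured rows, the Hox median was 0.07 higher at the authors' scaling and 0.08 higher after rescaling. After subtraction of the running median of rows of similar level, which varied with level between these libraries, the median of the 17 was 0.13.

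**Figure D2:**
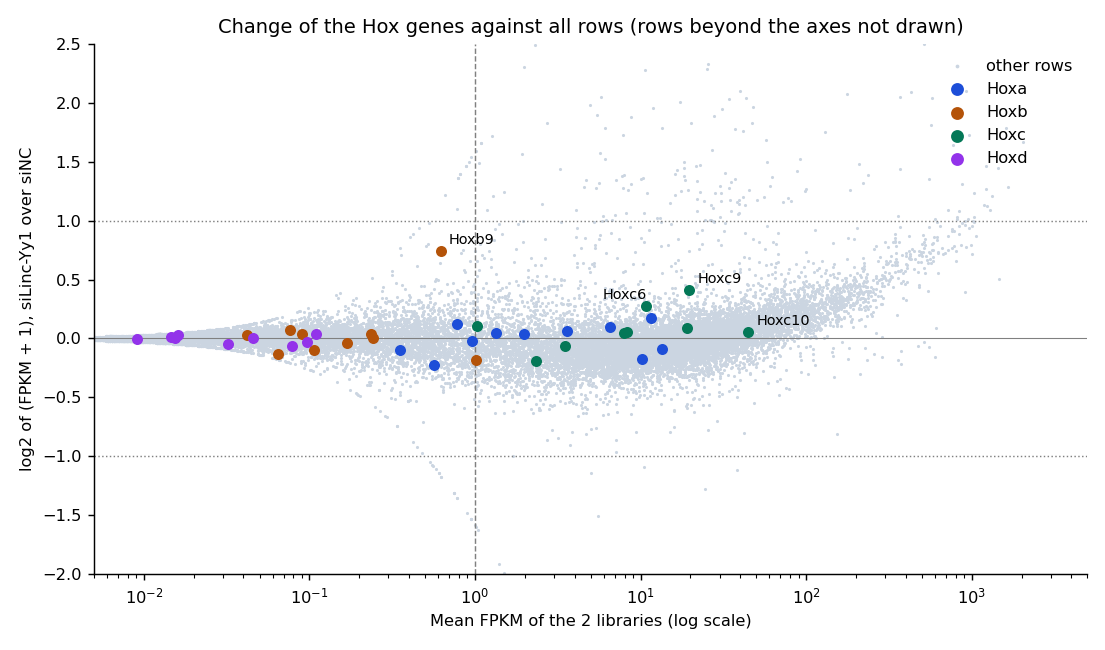
Log2 fold change of each gene, siLinc-Yy1 over siNC after adding 1 FPKM to each, against its mean FPKM (log scale), with Hox genes in colour by cluster and all other rows in grey. Dotted lines mark 2-fold and the dashed line 1 FPKM; the measured Hox genes lie between -0.19 and 0.41, and Hoxb9 stands apart at 0.74 below the 1 FPKM limit.

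The Hoxc cluster, on chromosome 15 from 102751561 to 102867283 (mm9), carried the highest Hox levels. Hoxc10, which works with its paralogues in shaping the lumbar spine and the upper hindlimb, led all Hox genes in both libraries, at 45.7 FPKM in siLinc-Yy1 and 43.9 FPKM in siNC. The ratio was 1.04, with a 95% counting interval that at its narrowest ran from 1.01 to 1.07. The authors' Cuffdiff test gave this gene a p-value of 0.753. Hoxc11, a neighbour on the tail side, stood at 19.6 FPKM in siLinc-Yy1 and 18.4 FPKM in siNC. Hoxc9, which marks the thoracic level in the spinal cord and the ribs, stood at 22.6 FPKM in siLinc-Yy1 and 16.7 FPKM in siNC. Hoxc9 and Hoxc11 exchanged places in the order of levels, Hoxc9 having rank 2 in siLinc-Yy1 and rank 3 in siNC.

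Hoxc9 had the highest log2 fold change of any measured Hox gene, 0.41, with a ratio of 1.35 (counting interval 1.31 to 1.39). It was also the 1 measured Hox gene still above 0 after rescaling to equal summed FPKM, at 0.11. In the authors' deposited table its p-value was 0.0184 and its q-value 0.361, and it was not called. Hoxc6, used with Hoxc9 in setting apart the motor neurons of the forelimb and the trunk, followed with 11.8 FPKM in siLinc-Yy1 and 9.60 FPKM in siNC, a log2 fold change of 0.28. Under rescaling Hoxc6 stood at -0.02.

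The libraries lay closer together in the other Hoxc genes, and not all of these were on the same side of 0. Hoxc4, the member nearest the head, stood at 8.48 FPKM in siLinc-Yy1 and 8.15 FPKM in siNC. Hoxc13, needed for hair and nails, was at 8.12 FPKM in siLinc-Yy1 and 7.85 FPKM in siNC. Hoxc8, a gene of the lower thoracic level, measured 3.39 FPKM in siLinc-Yy1 and 3.58 FPKM in siNC. Hoxc5 had the lowest log2 fold change of the measured Hox genes, -0.19, at 2.12 FPKM in siLinc-Yy1 and 2.57 FPKM in siNC, and it shares its locus row with the microRNA gene Mir615. Hoxc12 lay at the limit, with 1.10 FPKM in siLinc-Yy1 and 0.947 FPKM in siNC. Between the strong rows of Hoxc11 and Hoxc13 this gene was thus the weakest of the cluster in both libraries.

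The Hoxa cluster, on chromosome 6, was expressed mainly at numbers 7 to 11. Hoxa10, a gene of the lumbar spine, the femur and the uterus, stood at 13.04 FPKM in siLinc-Yy1 and 13.9 FPKM in siNC. Hoxa11, which patterns the forearm and lower leg, measured 9.503 FPKM in siLinc-Yy1 and 10.9 FPKM in siNC, a log2 fold change of -0.18. Hoxa9, a regulator of blood progenitors as well as of the trunk, was 1 of the 5 measured Hoxa genes above 0, at 0.18. The ratios of these 3 genes were 0.937, 0.874 and 1.14, so neighbours in the cluster lay on both sides of 1. Hoxa7, expressed along the trunk, measured 6.84 FPKM in siLinc-Yy1 and 6.33 FPKM in siNC.

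Toward the head side of the Hoxa cluster the levels were lower. Hoxa5, known for its role in the lung and the shoulder, measured 3.68 FPKM in siLinc-Yy1 and 3.48 FPKM in siNC. Hoxa3, used in the thymus and parathyroid, measured 2.01 FPKM in siLinc-Yy1 and 1.94 FPKM in siNC. Hoxa2, which patterns the second pharyngeal arch, was at 0.947 FPKM in siLinc-Yy1 and 0.981 FPKM in siNC, Hoxa6 at 0.851 and 0.702 FPKM, and Hoxa4 at 0.309 and 0.401 FPKM. The rows of Hoxa3, Hoxa4, Hoxa5 and Hoxa6 share 1 locus in the table, so reads were split among overlapping genes and their single values are uncertain. At the tail end Hoxa13, a gene of the digits and the urogenital tract, stood at 0.443 FPKM in siLinc-Yy1 and 0.682 FPKM in siNC. Its ratio of 0.650 rests on at most 41 fragments in siLinc-Yy1 and 87 in siNC, with a counting interval of 0.440 to 0.959. The q-value of Hoxa13 in the authors' deposited table was 0.676.

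The Hoxb cluster, on chromosome 11 from 96055674 to 96229567 (mm9), was near silent apart from Hoxb4 in both libraries and Hoxb9 in siLinc-Yy1. Hoxb4, known from blood stem cells, stood at 0.895 FPKM in siLinc-Yy1 and 1.15 FPKM in siNC, a log2 fold change of -0.18. Hoxb9, on chromosome 11 from 96132643 to 96137907, stood at 1.03 FPKM in siLinc-Yy1 and 0.214 FPKM in siNC. It acts with its paralogues of group 9 at the thoracic level and in the mammary gland. The ratio of Hoxb9 was 4.81, on at most 253 fragments in siLinc-Yy1 and 73 in siNC, with a counting interval of 3.70 to 6.33. Its log2 fold change was 0.74 with 1 FPKM added to each value, which is under 2-fold, and its mean of 0.622 FPKM also kept it out of the measured genes.

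Hoxb9 was the only Hox gene called in the authors' deposited table, with a q-value of 6.02e-10. That is 1 of the 25 Hox rows that the table tested, where 1.62% of all tested rows were called, 1.29% as higher in siLinc-Yy1. A single gene makes up this count, which says nothing about the family. The lowest q-value of the other 24 was 0.361, that of Hoxc9. Hoxb9 was also the only gene at least 2-fold apart when no value was added and the higher library had to reach 1 FPKM, 1 of 18 Hox genes, where 1.68% of such rows were higher in siLinc-Yy1 and 1.85% differed in either direction. Among 1593 tested rows with a mean of 0.3 to 1 FPKM and values above 0 in both libraries, 9 had a ratio at least as high as that of Hoxb9, itself included. In the same rows 39 were called in the authors' deposited table, 31 of them higher in siLinc-Yy1. This comparison of rows of like level was chosen after the value of Hoxb9 was seen.

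No other Hoxb gene was called beside Hoxb9, and several were not tested. Hoxb8, 5.31 kb away and a gene of myeloid progenitors and the trunk, stood at 0.252 FPKM in siLinc-Yy1 and 0.220 FPKM in siNC. Hoxb7, the next gene on that side and one of the trunk, was at 0.0539 FPKM in siLinc-Yy1 and 0.0300 FPKM in siNC, on at most 9 and 7 fragments, and its counting interval of 0.592 to 5.64 spanned 1. Further along, Hoxb3, a gene of the hindbrain and throat, was at 0.241 FPKM in siLinc-Yy1 and 0.240 FPKM in siNC. Hoxb13, known from the prostate and the tail bud and lying 74.7 kb on the other side, was at 0.0173 FPKM in siLinc-Yy1 and 0.112 FPKM in siNC. At most 2 fragments in siLinc-Yy1 and 16 in siNC lie behind Hoxb13, and the table did not test it. The remaining genes, Hoxb1, Hoxb2, Hoxb5 and Hoxb6, lay between 0.0492 and 0.185 FPKM. Among these the ratio of Hoxb2 was 2.09, with a counting interval of 0.773 to 6.64 that spanned 1. Without Hoxb9 the cluster summed to 1.89 FPKM in siLinc-Yy1 and 2.20 FPKM in siNC, with 5 of the 9 genes higher and 4 lower.

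The Hoxd cluster, on chromosome 2 from 74506366 to 74603199 (mm9), stayed near the floor in both libraries. Its 9 genes ranged from 0.00750 to 0.124 FPKM in siLinc-Yy1 and from 0.00624 to 0.107 FPKM in siNC. Hoxd11, a partner of Hoxa11 in the forearm, was the highest in siLinc-Yy1 at 0.124 FPKM, against 0.0939 FPKM in siNC. Hoxd13, the gene of the digits, stood at 0.0162 FPKM in siLinc-Yy1 and 0.0148 FPKM in siNC. Among the 7 Hoxd genes with a locus of their own, no gene had more than 10 fragments in siLinc-Yy1 or 17 in siNC at the upper limit. A ratio such as the 4.18 of Hoxd12, with a counting interval of 0.335 to 219, was therefore not resolved from 1 at this depth.

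**Figure D3:**
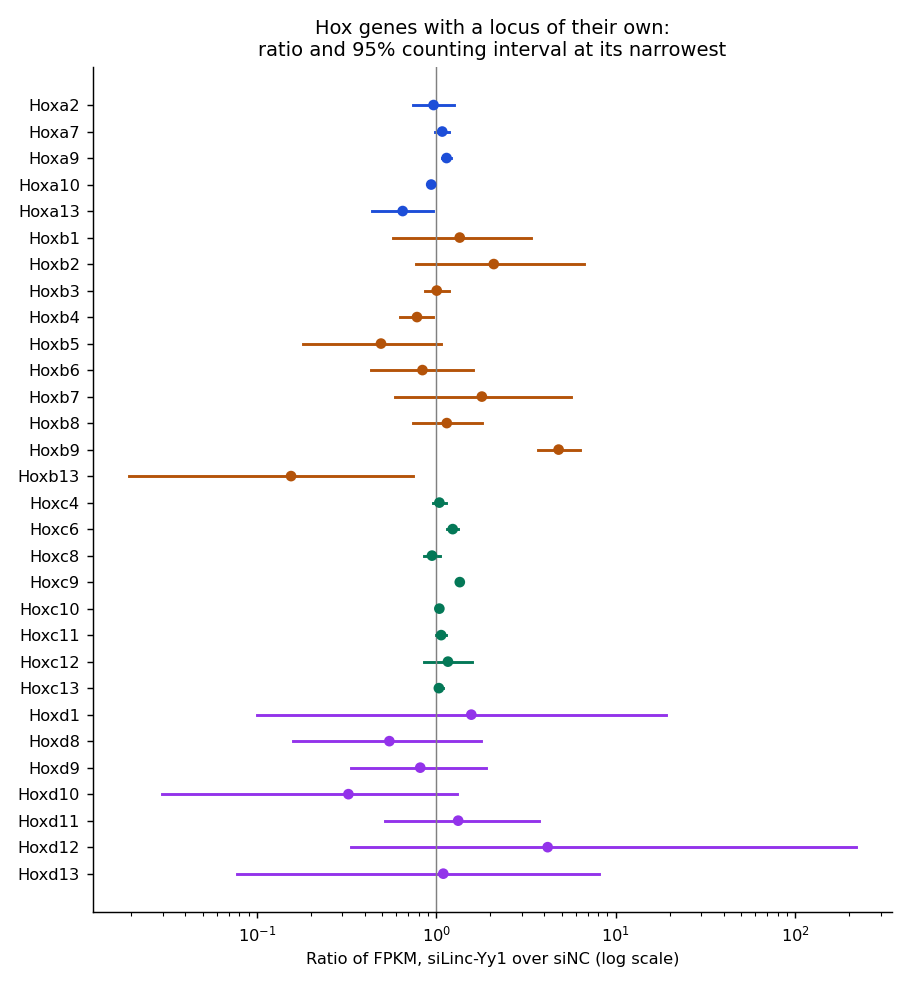
Ratio of FPKM in siLinc-Yy1 over siNC (log scale, no value added) for 30 of the Hox genes that share their locus row with no other gene, as points, with lines for the 95% counting interval at its narrowest. The lines of Hoxd and of most Hoxb genes are wide and cross 1, and those of most Hoxc and of most Hoxa genes are short. Hoxb9 lies at 4.81 with its line clear of 1.

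At their narrowest, the counting intervals of 21 of the 31 genes with a locus of their own spanned 1. The intervals of Hoxa9, Hoxb9, Hoxc6, Hoxc9, Hoxc10 and Hoxc11 lay above 1, and those of Hoxa10, Hoxa13, Hoxb4 and Hoxb13 below it. Of these genes the authors' deposited table called Hoxb9 alone, and it did not test Hoxb13. The interval that applies can be wider, so one clear of 1 at its narrowest does not resolve a gene from 1. Such an interval does not include the spread between cultures, and under rescaling to equal summed FPKM, which multiplies siLinc-Yy1 by 0.800, the ratios of Hoxa9, Hoxc6, Hoxc10 and Hoxc11 all fall below 1.

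By paralogue group, the tail-side genes held most of the Hox level in both libraries. Groups 9 to 13 made up 75.3% of all Hox FPKM in siLinc-Yy1 and 75.1% in siNC, groups 4 to 8 held 22.0% and 22.1%, and groups 1 to 3 held 2.71% and 2.77%. Group 10 had the highest sum, 58.8 FPKM in siLinc-Yy1 and 57.9 FPKM in siNC, nearly all of it Hoxc10 and Hoxa10. Group 9 summed to 36.1 FPKM in siLinc-Yy1 and 27.9 FPKM in siNC, the highest ratio of the 13 sums at 1.29. In this group Hoxc9, Hoxa9 and Hoxb9 were all higher in siLinc-Yy1, and Hoxd9 was lower. Hoxc9, at 22.6 FPKM in siLinc-Yy1 and 16.7 FPKM in siNC, made up most of the difference. After rescaling to equal summed FPKM, the log2 fold changes were 0.11 for Hoxc9, -0.12 for Hoxa9, 0.59 for Hoxb9 and -0.05 for Hoxd9. Group 6, with Hoxc6 as its main member, had the next highest ratio, with 12.9 FPKM in siLinc-Yy1 and 10.5 FPKM in siNC. Group 11 summed to 29.2 FPKM in siLinc-Yy1 and 29.4 FPKM in siNC, and group 13 to 8.59 and 8.66 FPKM. The 4 paralogues of group 13 were unequal, with Hoxc13 near 8 FPKM and the others below 1 FPKM.

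**Figure D4:**
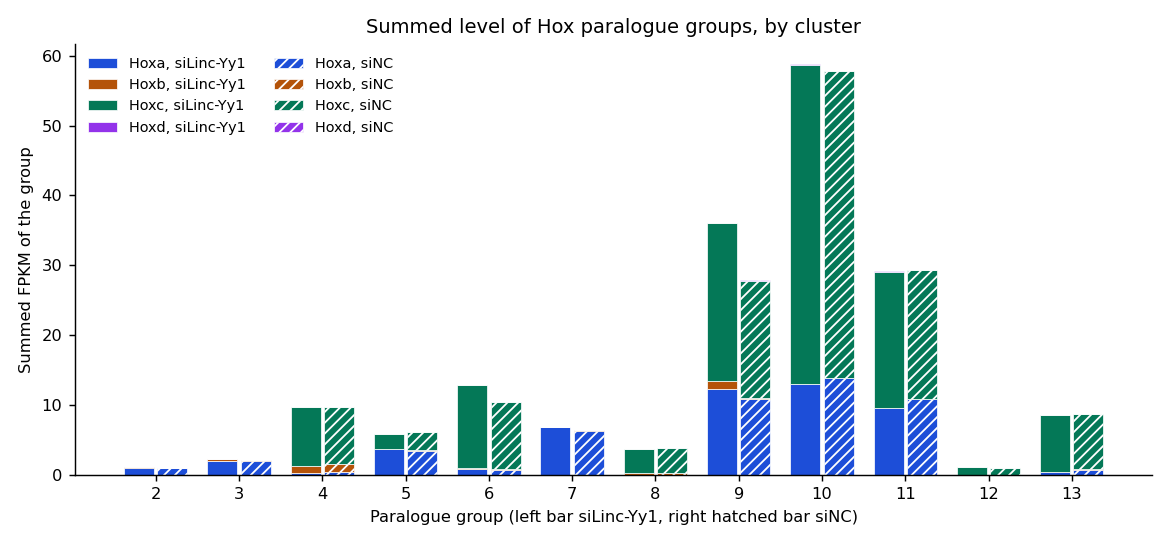
Summed FPKM of 12 Hox paralogue groups, stacked by cluster, with the left bar for siLinc-Yy1 and the right hatched bar for siNC. Groups 9, 10 and 11 are the tallest, Hoxc and Hoxa make up nearly all of every bar, and group 9 has the largest difference between its bars, 36.1 against 27.9 FPKM.

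Other transcripts inside the clusters were measured as well. Hoxa11as, the antisense transcript of Hoxa11 in the same locus row, stood at 16.04 FPKM in siLinc-Yy1 and 16.6 FPKM in siNC. No source used here says whether reads were counted by strand, so reads of Hoxa11 and Hoxa11as cannot be told apart. Mira, a transcript from between Hoxa6 and Hoxa7 that is known in mouse embryonic stem cells for bringing in the Trithorax methyltransferase Mll1, measured 16.3 FPKM in siLinc-Yy1 and 13.6 FPKM in siNC (0.25). No row of at least 1 FPKM lay between the Hoxb genes or between the Hoxd genes. Of the flanking genes within 100 kb, Mtx2, a mitochondrial import protein 60.7 kb beyond Hoxd1, measured 15.96 FPKM in siLinc-Yy1 and 22.3 FPKM in siNC (-0.46), with a q-value of 0.289 in the authors' deposited table. Lnp, on the other side of Hoxd, measured 3.99 FPKM in siLinc-Yy1 and 4.53 FPKM in siNC, so the silent Hoxd genes lay between 2 expressed neighbours. Evx1 and Evx2, the homeobox genes at the tail ends of Hoxa and Hoxd, were at 0.0151 and 0.0102 FPKM in siLinc-Yy1 and at 0.0127 and 0.0193 FPKM in siNC.

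The clusters also hold microRNA genes whose products are known to act on Hox messages, of which miR-196 directs cleavage of the Hoxb8 mRNA. Their mature forms are printed from RefSeq (GRCm38.p6), 5′ to 3′, with the seed, bases 2 to 8, in capitals.
mmu-miR-196a-5p: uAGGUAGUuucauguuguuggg
mmu-miR-196b-5p: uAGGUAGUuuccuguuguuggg
mmu-miR-10a-5p: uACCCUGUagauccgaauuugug
mmu-miR-10b-5p: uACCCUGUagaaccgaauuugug
mmu-miR-615-3p: uCCGAGCCugggucucccucuu
The miR-196 forms share 1 seed and differ by A12C, with miR-196a first and positions counted from the 5′ end, and the miR-10 forms share another and differ by U12A, with miR-10a first. The microRNA gene rows reflect fragments of longer poly(A) RNA, not the mature forms, and rows this short can rest on few fragments. Mir196b, between Hoxa9 and Hoxa10, stood at 1.69 FPKM in siLinc-Yy1 and 1.11 FPKM in siNC. Mir615, inside Hoxc5, stood at 3.95 FPKM in siLinc-Yy1 and was listed at 0 in siNC, with a q-value of 0.881 in the authors' deposited table. Mir10a, Mir10b, Mir196a-1 and Mir196a-2 were listed at 0 in both libraries.

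The proteins that work with Hox factors and those that set their state were expressed in both libraries. All 9 TALE cofactors, the Pbx, Meis and Pknox homeobox proteins that bind DNA beside Hox proteins, were measured, 2 higher and 7 lower in siLinc-Yy1 with a median of -0.04. Pbx2 measured 22.0 FPKM in siLinc-Yy1 and 21.4 FPKM in siNC, Meis2 18.6 and 17.9 FPKM, and Pknox1 11.8 and 12.1 FPKM. Pbx4 had the widest difference, 1.33 FPKM in siLinc-Yy1 and 1.89 FPKM in siNC, ahead of Pbx3 (7.44 and 8.32 FPKM) and Meis3 (6.36 and 6.73 FPKM).

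Of 18 upstream regulators of Hox genes, 9 were measured, 3 higher and 6 lower, with a median of -0.01. Of the retinoic acid and retinoid X receptors, the highest was Rarg with 81.3 FPKM in siLinc-Yy1 and 66.1 FPKM in siNC, and values in the same order were 33.5 and 28.5 FPKM for Rara, 11.3 and 12.1 FPKM for Rxra, and 1.49 and 1.72 FPKM for Rarb. Crabp2, a retinoic acid carrier, stood at 36.03 FPKM in siLinc-Yy1 and 38.4 FPKM in siNC, and Gdf11, a growth factor of the trunk to tail transition, at 23.87 and 23.97 FPKM. The Cdx factors, which open the central Hox genes in the embryo, were at or near 0 in both.

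Of the 16 Trithorax and H3K4 methylation genes, 15 had a row and all 15 were measured, 10 higher and 5 lower, with a median of 0.05. Dpy30 and Ash2l, shared subunits of the H3K4 methyltransferase complexes, measured 108.9 and 34.4 FPKM in siLinc-Yy1 and 94.5 and 36.7 FPKM in siNC. Psip1, a chromatin reader that works with Mll1, measured 64.3 FPKM in siLinc-Yy1 and 55.7 FPKM in siNC, and Hcfc1, a cofactor of the same complexes, 38.0 and 33.1 FPKM. Kdm6b, which removes methyl groups from H3K27, measured 17.9 FPKM in siLinc-Yy1 and 14.2 FPKM in siNC. The 26 Polycomb and boundary genes were all measured, 14 higher and 12 lower, with a median of 0.03. Among them Rad21, a cohesin subunit, stood at 138 FPKM in siLinc-Yy1 and 101 FPKM in siNC, and Suz12, a core subunit of PRC2, at 13.8 and 17.2 FPKM. The histone-binding proteins Rbbp7 and Rbbp4 measured 93.3 and 59.2 FPKM in siLinc-Yy1 and 89.9 and 52.6 FPKM in siNC. Of the PRC1 subunits, Phc2 measured 83.5 FPKM in siLinc-Yy1 and 79.5 FPKM in siNC, and Cbx7 6.80 and 5.17 FPKM. The authors' deposited table called none of these cofactor, regulator, Trithorax or Polycomb genes, and none was 1.5-fold apart, where 1.62% of all tested rows were called and 3.80% of measured rows were 1.5-fold apart, so neither count of 0 sets these lists apart. Rescaling to equal summed FPKM brought the medians of the 4 lists to between -0.33 and -0.23, beside -0.30 for all measured rows. Less the running median of rows of like level, the medians were 0.04 for the cofactors, 0.01 for the upstream regulators, 0.06 for the Trithorax genes and -0.01 for the Polycomb genes, so in 3 of the 4 lists the median changed sign.

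**Figure D5:**
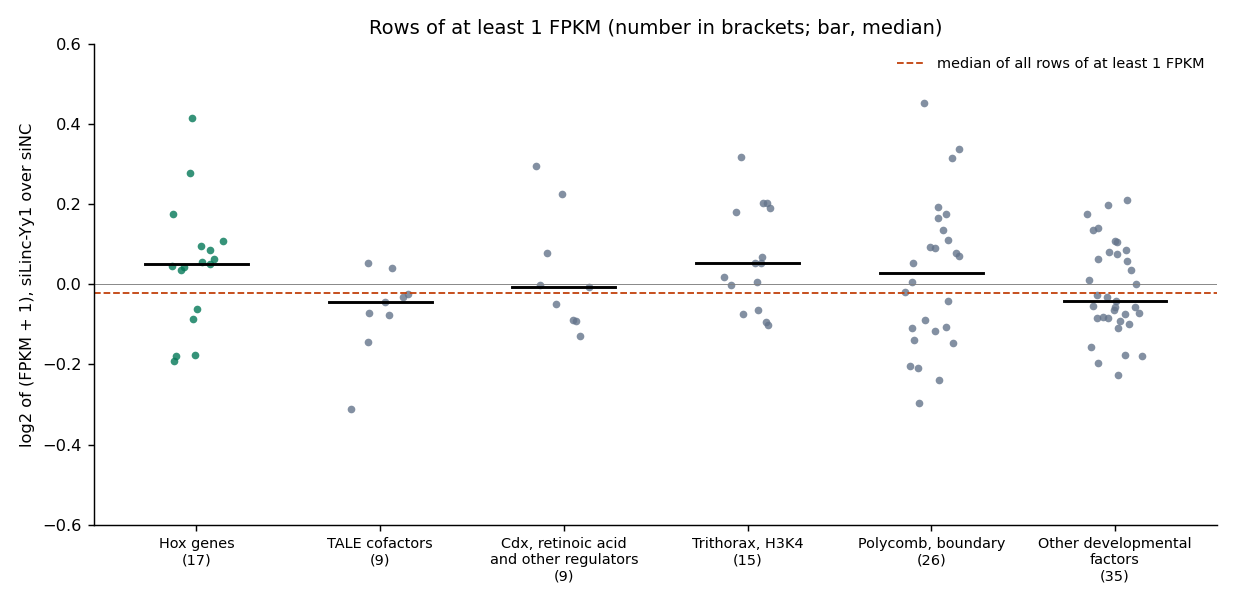
Log2 fold change of every row of at least 1 FPKM, siLinc-Yy1 over siNC after adding 1 FPKM to each, for the Hox genes and 5 related lists, with bars at the medians and a dashed line at the median of all measured rows. The medians lie between -0.04 and 0.05, and the points of each list spread on both sides of 0.

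Other developmental transcription factors that Polycomb commonly regulates were mostly below 1 FPKM. Of 134 such genes 99 (73.9%) were below this limit, where 11792 of all 23236 rows of the table reached it. Of the 35 measured ones 15 were higher and 20 lower in siLinc-Yy1, with a median of -0.04 (0.03 less the running median). Prrx2 (53.9 FPKM in siLinc-Yy1 and 47.6 FPKM in siNC) and Prrx1 (33.5 and 31.6 FPKM), factors of limb and facial mesenchyme, were among the highest. The widest differences were those of Irx2 (2.12 and 2.65 FPKM), Irx3 (11.2 and 9.503 FPKM), Hlx (32.0 and 27.7 FPKM) and Lhx9 (1.70 and 2.09 FPKM), siLinc-Yy1 given before siNC, with log2 fold changes of -0.23, 0.21, 0.20 and -0.20. The authors' deposited table called 2 of the 60 tested members, both higher in siLinc-Yy1 and both below 1 FPKM, where 1.62% of all tested rows and 2.45% of those with a mean of 0.3 to 1 FPKM were called. Emx2, a homeobox gene of the forebrain, kidney and scapula, stood at 0.874 FPKM in siLinc-Yy1 and 0.325 FPKM in siNC, and Isl1, a LIM homeobox gene of motor neurons and the heart, at 0.262 and 0.0682 FPKM. The mean of Isl1, 0.165 FPKM, lay below the range of 0.3 to 1 FPKM. Other tested members lay outside this range as well, so its share is a rough comparison only. The epithelial cadherin Cdh1 was called as well (q-value 0.0198), at 0.379 FPKM in siLinc-Yy1 and 0.173 FPKM in siNC. Over all genes, 62 of the 233 called rows had a mean below 1 FPKM. Emx2, Isl1 and Cdh1 were named after their values were seen. Their part in the result for Hoxb9 was not tested, and in bulk RNA more expressing cells and more RNA per cell cannot be told apart.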

How the data were processed

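The myoblast RNA-seq came as a Cuffdiff table of genes whose 2 deposited files are byte for byte identical, and 1 was used. The FPKM values, p-values and q-values in it are the authors' own estimates, per the file headers. The header has siNC and siLinc-Yy1, in this order, where Cuffdiff names its first and second sample, so the first value column was read as siNC and the second as siLinc-Yy1, and every direction rests on that reading. Tools listed in the submitters' processing notes include TopHat2 (2.0.4), Cufflinks (2.1.1) and Cuffdiff (2.0.4), with mm9 as the build. Annotation, strand and scaling between libraries were not stated in any source used here.

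Values were handled with Python 3.11.15, pandas 2.3.3 and scipy 1.17.1. Log2 fold changes, siLinc-Yy1 over siNC, had a pseudocount of 1 FPKM. Genes counted as changed at 2-fold or more with a mean of at least 1 FPKM. A simulation checked this rule only for planted changes larger than 2-fold, in genes of at least 5 FPKM and with counting noise alone. Unchanged genes were scored there only after subtraction of a running median. Detection of changes near 2-fold or at lower levels, and the spread between cultures, were not checked. With 1 library per condition no statistical test was run. Every Hox row is accounted for, and rows of at least 1 FPKM are given by value, except that a few genes of the clusters and lists are not reported here by name. From each list the 4 widest changes and 4 highest levels are named, with other genes in the clusters or within 100 kb when at least 1 FPKM. Of the lists, the cofactor, regulator, Trithorax, Polycomb, developmental factor and marker lists are reported in full counts. The rule for the members reads symbols alone, but the choice of this family, the lists and the rules were made with earlier results of these data known. Alternatives were other pseudocounts (0.1 and 5 FPKM), filters, scalings, a fold of 1.5, subtraction of a running median over 301 rows and the authors' calls.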

Additional observations from a re-analysis of the deposited data

How the results depend on the processing

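The count of Hox genes at least 2-fold changed was 0 under each pseudocount, filter and scaling tried, under a fold of 1.5, with status OK alone, and, in an alternative chosen after seeing the data, with a limit of 1 FPKM on the higher library. It was 1, Hoxb9, by the calls in the authors' deposited table, and 1, again Hoxb9, with no value added and a limit of 1 FPKM on the higher library, also chosen after seeing the data. The settings with a count of 0 that let in genes below a mean of 1 FPKM all added 1 FPKM to each value. A gene at that level can then hardly reach 2-fold, so for such genes the 0 carries little weight. The median of the measured Hox genes was 0.05 as reported and -0.219 when both libraries were rescaled to equal summed FPKM, a step that lowers every value of siLinc-Yy1; elsewhere it lay between 0.03 and 0.13. The difference in the Hoxa share of summed Hox FPKM, siLinc-Yy1 minus siNC, was -2.07 percentage points, -2.11 with status OK alone, and -3.20 without Hoxc10, which takes the largest level out of both sums. Of the 17 measured genes, 12 were above 0 under both other pseudocounts, under centring and less the running median, and 1, Hoxc9, after rescaling. Rescaling left 1019 of all 11792 measured rows above 0. No paired analysis was possible because each condition has 1 library. Depth limits the Hoxd genes and most Hoxb genes, which rest on few fragments.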
